A study of Mus musculus with 6 samples.

Results

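The 7 genes described here are 3 matrix metalloproteinases, Mmp2, Mmp3 and Mmp14, and the 4 tissue inhibitors of metalloproteinases, Timp1, Timp2, Timp3 and Timp4. They were taken by gene symbol from the expression tables of a single-cell RNA-seq study of regenerating mouse muscle, where all 7 were among the 12436 genes listed. Cells came from the tibialis anterior muscle (TAM) of male Gt(ROSA)26Sor tm1(Fucci2aR)Jkn mice on a B6;129 background, a line with a Cre-dependent fluorescent cell cycle reporter in the Rosa26 locus, aged 3 to 5 months. Hypothyroid mice ate an iodine-deficient diet with 0.15% propylthiouracil (PTU), which blocks thyroid hormone synthesis, and control mice ate a matched diet. The right TAM was injured with cardiotoxin (CTX, 50 μg/ml), a venom toxin that destroys myofibers, and cells were collected without injury (day 0) and at 5 and 14 days post-injury (dpi). The line came from a cross with mice carrying Cre under the Pax7 promoter, and the study's methods state that animals without Cre were used for sequencing, so that the reporter, which needs Cre, was not switched on in any of the 6 groups. Each group was 1 library made from pooled mice, so that differences between mice cannot be separated from differences between diets or days.

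Metalloproteinases are zinc-dependent enzymes that cut proteins of the extracellular matrix and shed proteins from the cell surface. Mmp2 (gelatinase A) cuts basement membrane and denatured collagen, Mmp3 (stromelysin-1) cuts proteoglycans and several matrix proteins and can activate other metalloproteinases, and Mmp14 (MT1-MMP) is anchored in the membrane and cuts fibrillar collagen. TIMPs bind the active site of these enzymes, and TIMP2 has a second role, since together with MMP14 at the cell surface it also helps to activate the inactive precursor of MMP2. Fibro-adipogenic progenitors (FAPs), the connective-tissue cells between myofibers, are a main source of matrix and of its remodeling enzymes after muscle injury.

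In mm39 coordinates as the tables give them, Mmp2 is at chr8:93553919-93580049, Mmp3 at chr9:7445822-7455976, Mmp14 at chr14:54669069-54682822 and Timp1 at chrX:20736405-20740975. Timp2 is at chr11:118191895-118246567, Timp3 at chr10:86136236-86185371 and Timp4 at chr6:115218853-115229167. All 7 are annotated as protein-coding, Timp2 and Timp4 on the minus strand and the others on the plus strand. In the annotation, 3 of the inhibitor genes overlap a synapsin gene on the opposite strand, Timp1 with Syn1, Timp3 with Syn3 and Timp4 with Syn2, and Timp2 overlaps Cep295nl on its own strand. Whether counting used the strand is not given in the sources used here, so a small part of these counts could belong to the overlapping gene.

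The bases just before the start site are shown for the genes with the most distinct patterns below, Mmp3 (held by few FAPs), Timp1 (highest at 5 dpi) and Timp4 (a vessel gene). The sequences are RefSeq promoters of build GRCm38.p6, 150 bases each, written 5′ to 3′ on the gene's strand and ending at the base before the start site. Capitals mark TGANTCA, the letters that AP-1 transcription factors prefer.
Mmp3, chr9:7445672-7445821, plus strand: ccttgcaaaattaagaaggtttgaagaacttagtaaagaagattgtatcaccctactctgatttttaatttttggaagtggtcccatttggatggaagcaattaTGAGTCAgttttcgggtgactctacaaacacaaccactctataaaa
Timp1, chrX:20870016-20870165, plus strand: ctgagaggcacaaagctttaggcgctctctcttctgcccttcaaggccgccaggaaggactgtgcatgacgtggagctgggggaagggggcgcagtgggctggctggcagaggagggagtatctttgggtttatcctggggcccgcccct
Timp4, chr6:115252206-115252355, minus strand: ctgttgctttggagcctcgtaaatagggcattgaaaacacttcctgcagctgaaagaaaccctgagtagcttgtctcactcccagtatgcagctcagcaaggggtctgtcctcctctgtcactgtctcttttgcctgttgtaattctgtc

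The motif was searched on both strands of the whole promoter window, 250 bases before to 50 after the start site, in the 6 members with a promoter entry. It was found in Mmp3 only, with its first base at position -46, and in 7.81% of all 32851 promoters. GC content of the window was 40.0% in Mmp3, 56.0% in Mmp14, 55.0% in Timp1 and 53.3% in Timp4, and higher in Timp2 (68.7%) and Timp3 (67.0%), against a median of 52.7% over all promoters. These are descriptions of the letters, not of binding.

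The part of each table used here held 11207 cells, 528 to 3294 per library, with 2283740 to 23496509 unique molecular identifiers (UMIs) in all and a median of 3634 to 8055 UMIs per cell. The remaining 9062 columns could not be tied to a library and were not used; 12 barcodes occurred in more than 1 library. Cells were sorted into classes by marker genes, none of which is one of the 7 genes, and a class is called X-like for that reason. FAP-like cells were the most numerous (4688 cells, 295 to 1560 per library), followed by T/NK-like (1176), endothelial-like (1126) and monocyte/macrophage-like cells (943), and 1769 cells met no gate. Most markers were highest in the class they define: 9 of 13 FAP markers were highest in FAP-like cells, while all 11 endothelial, 10 mural, 10 myogenic progenitor, 12 monocyte/macrophage and 11 T/NK markers were highest in their own class. The gate assigns cells by these same markers, so these counts are not an independent check of the labels. FAP-like cells also held RNA of other cells, with the 11 myocyte markers summing to 223.5 to 10420 CPM (UMIs of a gene per 1000000 UMIs of the pool) and the 12 monocyte/macrophage markers to 88.3 to 158 CPM across libraries. The 7 tenocyte markers in FAP-like cells summed to 68.0 (control) and 89.8 CPM (hypothyroid) at day 0. They summed to 1455 and 1804 CPM at 5 dpi, and to 356.9 and 989.1 CPM at 14 dpi. At 5 dpi, 3 (control) and 7 (hypothyroid) cells were tenocyte-like. Endothelial-like, monocyte/macrophage-like, myogenic progenitor-like and T/NK-like cells then held 7.92 to 33.7 CPM (control) and 5.29 to 79.6 CPM (hypothyroid) of the same markers. Whether the tenocyte marker RNA of FAP-like cells came from other cells was not tested. The part of these 3 sets of marker RNA in the results below was not tested either.

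The family was split between FAP-like and endothelial-like cells. Mmp2, Mmp3, Mmp14, Timp1 and Timp2 were higher in FAP-like than in endothelial-like cells in 6 of 6 libraries, and Timp3 and Timp4 were lower in 6 of 6. In limma fitted over pools of 1 class in 1 library, with library as a block, all 7 differences passed an adjusted p of 0.05, where 22.5% of 11796 genes did. Levels (CPM) are counts of 3′ ends and are not scaled by gene length.

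Mmp2 is the gelatinase of the stroma. In FAP-like cells it stood at 509, 372 and 1046 CPM on the control diet at day 0, 5 dpi and 14 dpi, and at 448, 344 and 1082 CPM on the hypothyroid diet. In endothelial-like cells it ranged from 1.32 to 28.5 CPM over the same 6 libraries. The groups did not overlap, and the difference was 5.35 ± 0.68 on the log2 scale (SE; limma, adjusted p = 2.09e-07). Tenocyte-like cells, the tendon fibroblasts, held 648 and 1639 CPM at day 0 and 14 dpi on the control diet and 1731 CPM at 14 dpi on the hypothyroid diet, above FAP-like cells in 3 of 3 libraries, but the difference did not pass the test (FAP-like minus tenocyte-like -0.72 ± 0.86, adjusted p = 0.764, limma).

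Mmp3, the stromelysin, was found in FAP-like and tenocyte-like cells and was near absent from vessels. In FAP-like cells it stood at 30.3, 276 and 233.5 CPM on the control diet and 13.4, 79.6 and 520.5 CPM on the hypothyroid diet, in the order of days. Endothelial-like cells held 0 to 3.68 CPM, and the difference was 5.78 ± 0.83 (log2, SE; limma, adjusted p = 1.65e-06). A single myocyte-like pool, control 14 dpi, reached 221 CPM, while both myocyte-like pools of day 0 held no Mmp3 UMI.

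Mmp14, the membrane-anchored collagenase, was more widely spread. FAP-like cells held 137, 452 and 248.6 CPM (control) and 129, 272 and 205 CPM (hypothyroid), and tenocyte-like cells 157 to 552 CPM. Mural-like cells, the pericytes and smooth muscle of vessels, held 119.9 to 196 CPM, and FAP-like cells did not differ from them past the threshold (0.72 ± 0.62, log2, adjusted p = 0.471, limma). Monocyte/macrophage-like cells held 57.3 to 118 CPM and lay below FAP-like cells in 4 of 4 libraries (1.94 ± 0.62, adjusted p = 0.016, limma). That call was lost when either the control 5 dpi or the control 14 dpi library was left out.

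**Figure D1:**
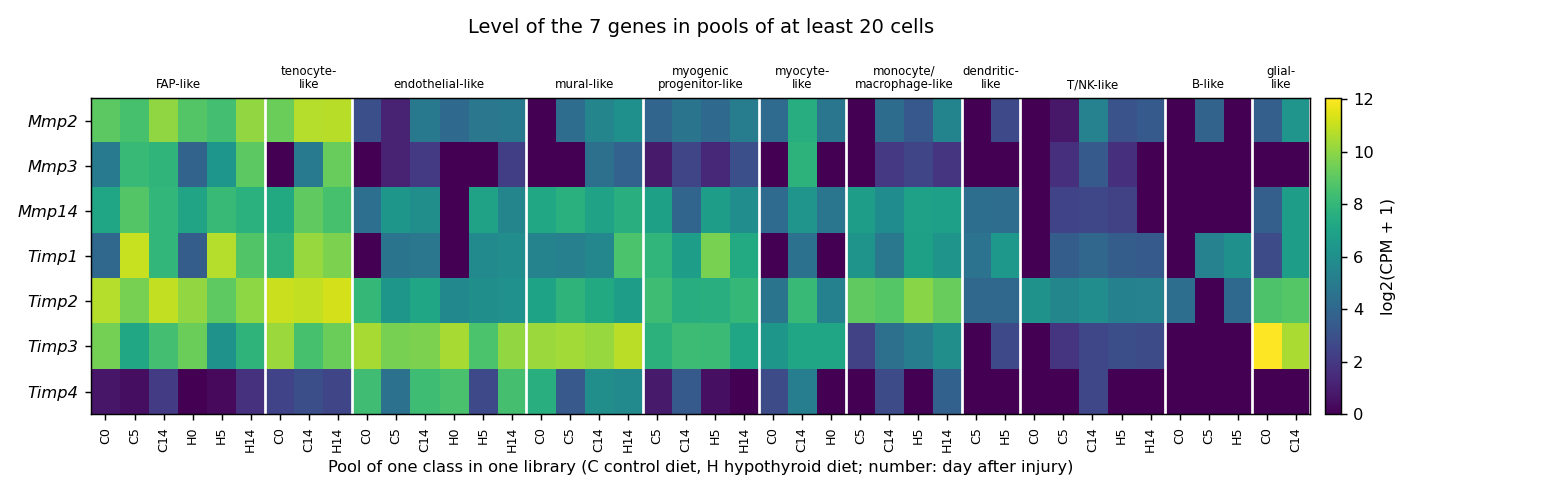
Level of the 7 genes, as log2(CPM + 1) in color, in the 42 pools of 1 class in 1 library that held at least 20 cells; columns are grouped by class and named by diet (C control, H hypothyroid) and day. By the median over libraries, Mmp2, Mmp3 and Timp1 were highest in FAP-like and tenocyte-like pools and Timp3 in glial-like, mural-like and endothelial-like pools. Timp4 was highest in endothelial-like pools, where it was lower at 5 dpi than at the other times. Single pools departed from this order. Timp1 was 15.6 (control) and 10.7 CPM (hypothyroid) in FAP-like pools at day 0, against 105 to 781 CPM in myogenic progenitor-like pools.

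Timp1, the inducible inhibitor, was low in FAP-like cells without injury. FAP-like cells held 15.6, 2117 and 247 CPM (control) and 10.7, 1670 and 436 CPM (hypothyroid), so that both 5 dpi libraries stood above the other 4. Tenocyte-like cells held 226 and 1162 CPM at day 0 and 14 dpi on the control diet and 816 CPM at 14 dpi on the hypothyroid diet, above FAP-like cells in 3 of 3 libraries without passing the test (-1.66 ± 0.71, log2, adjusted p = 0.208, limma). Myogenic progenitor-like cells, which include the muscle stem cells, held 241 CPM (control) and 781 CPM (hypothyroid) at 5 dpi and 105 and 164 CPM at 14 dpi.

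Timp2, the inhibitor that also takes part in activating MMP2, made up 60.6 to 76.6% of the TIMP UMIs of FAP-like cells outside 5 dpi. It stood at 1643, 754 and 1958 CPM (control) and 1076, 531 and 1028 CPM (hypothyroid), lower on the hypothyroid diet at each day. Tenocyte-like cells held 1984 to 2480 CPM over 3 libraries. Monocyte/macrophage-like cells held 548 and 471 CPM at 5 and 14 dpi on the control diet and 958 and 598 CPM on the hypothyroid diet. FAP-like cells did not differ from the latter past the threshold (0.79 ± 0.58, log2, adjusted p = 0.34, limma), and in the hypothyroid 5 dpi library the monocyte/macrophage-like pool was the higher one. In the same class, Timp2 made up 80.4 to 89.7% of all TIMP UMIs.

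Timp3, the inhibitor that binds to the matrix, was highest in glia and vessels. Glial-like cells, the Schwann cells of nerves, held the highest levels, 4206 CPM at day 0 and 1479 CPM at 14 dpi on the control diet, the 2 libraries with at least 20 such cells, too few for a test. Mural-like cells held 1163 to 1791 CPM and endothelial-like cells 392 to 1404 CPM, against 71.6 to 729 CPM in FAP-like cells. Tenocyte-like cells held 372 to 1205 CPM, above FAP-like cells in 3 of 3 libraries without passing the test (FAP-like minus tenocyte-like -1.22 ± 0.62, log2, adjusted p = 0.3225, limma). FAP-like cells were lower than mural-like cells in 4 of 4 libraries (-2.42 ± 0.56, log2, adjusted p = 0.00189) and lower than endothelial-like cells in 6 of 6 (-1.72 ± 0.49, adjusted p = 0.00851, both limma).

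Timp4 was a vessel gene. Outside endothelial-like and mural-like cells, no pool of at least 20 cells held more than 34.05 CPM (14 UMIs, myocyte-like, control 14 dpi). Endothelial-like cells held 322.5, 22.4 and 316 CPM on the control diet and 388, 5.29 and 355 CPM on the hypothyroid diet at day 0, 5 dpi and 14 dpi. Mural-like cells held 190.5, 9.31 and 61.6 CPM (control) and 51.5 CPM (hypothyroid 14 dpi). FAP-like cells held 0 to 3.47 CPM, and the hypothyroid day 0 pool held 0 UMIs, which allows up to 2.01 CPM (3 counts). The FAP-like minus endothelial-like difference was -5.93 ± 0.74 (log2, adjusted p = 1.44e-07, limma) and the FAP-like minus mural-like difference was -4.33 ± 0.85 (adjusted p = 0.000276).

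Counted over all contrasts, 6 of 7 genes were higher in FAP-like than in T/NK-like cells, where 41.5% of genes were called in either direction, and 6 of 7 were higher than in B-like cells (44.2% called). Timp4 was the exception in both. Against monocyte/macrophage-like cells, 5 of 7 were higher (29.7% called), all but Timp2 and Timp4. Against myocyte-like cells, 5 of 7 were higher (42.6% called), with Timp3 close to the threshold (1.48 ± 0.62, adjusted p = 0.0535, limma). Against mural-like cells, Mmp2, Mmp3 and Timp2 were higher and Timp3 and Timp4 lower (20.1% called). Timp1 narrowly missed (1.75 ± 0.65, adjusted p = 0.0527). Against myogenic progenitor-like cells, 4 of 7 were higher (13.2% called), namely Mmp2, Mmp3, Mmp14 and Timp2. Without the control 14 dpi library, 2 of them were. Against tenocyte-like cells, 0 of 7 passed in limma (5.69% called). Before adjustment, 2 members had a limma p under 0.05, Mmp3 higher in FAP-like cells (unadjusted p = 0.0167; adjusted p = 0.162) and Timp1 lower (unadjusted p = 0.0261).

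T/NK-like cells were taken as the background of free RNA. T/NK-like pools held 0 to 39.1 CPM of Mmp2, 0 to 9.77 CPM of Mmp3, 0 to 4.88 CPM of Mmp14, 0 to 14.65 CPM of Timp1 and 0 to 6.32 CPM of Timp3. Timp2 was higher there, at 37.9 to 68.9 CPM. The highest of these Mmp2 values, control 14 dpi, rests on 8 UMIs. In the hypothyroid 14 dpi library, Mmp2 was 42.65 CPM in monocyte/macrophage-like and 28.5 CPM in endothelial-like cells, against 9.75 CPM in T/NK-like cells. In the control 5 dpi library it was 14.3 CPM in myogenic progenitor-like and 0.74 CPM in T/NK-like cells. The part of free RNA in these values was not tested.

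Within FAP-like cells, the inhibitors changed places between days. With 1 library per diet and day, a single ratio has no test. Its interval (95%, exact) covers counting error only, and a gene is called past the fold where its level differed at least 2-fold. The days were also compared over both diets, and the diets over the 3 days, in limma with terms for diet and day. That fit used 7554 genes, left 2 residual degrees of freedom, and was added after the data had been seen. From day 0 to 5 dpi on the control diet, Timp1 rose from 15.6 to 2117 CPM (136-fold, interval 108 to 174), Mmp3 from 30.3 to 276 CPM (9.12-fold, 7.66 to 10.9) and Mmp14 from 137 to 452 CPM (3.29-fold, 3.02 to 3.6). Timp3 stood at 0.201 of its day 0 level (0.186 to 0.217) and Timp2 at 0.459 (0.442 to 0.477). These 5 were past the fold of 6 members with at least 100 UMIs, beside 28.4% of 8028 genes.

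The same 5 genes were past the fold in the same directions on the hypothyroid diet, where 35.0% of 8112 genes were. Timp1 went from 10.7 to 1670 CPM (156-fold, 95.8 to 272), Mmp3 from 13.4 to 79.6 CPM (5.94-fold, 3.82 to 9.77) and Mmp14 from 129 to 272 CPM (2.1-fold, 1.82 to 2.44). Timp3 stood at 0.111 of its day 0 level and Timp2 at 0.494. Over both diets, 5 of 6 members passed the test between day 0 and 5 dpi, beside 40.2% of all genes: Timp1 (7.08 ± 0.28, log2, SE; limma, adjusted p = 2.06e-11), Mmp3 and Mmp14 rose, and Timp3 and Timp2 fell. In both diets Mmp2 was the member with the smallest difference, at 0.731 (control) and 0.766 (hypothyroid) of its day 0 level. When all columns of each file were used, mixing in cells of unknown library, Mmp3 turned to 0.88 (control) and 0.644 (hypothyroid), Timp2 to 1.04 (control) and Mmp14 to 0.978 (hypothyroid). With each cell counted for at most 10 UMIs of a member, Mmp3 was 3.27-fold (control) and 4.87-fold (hypothyroid) and Timp1 25.4-fold and 40.2-fold higher at 5 dpi. By share of cells after thinning, Mmp3 was 3.75-fold and 3.69-fold and Timp1 42.6-fold and 30.7-fold higher.

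From 5 to 14 dpi, Timp1 dropped while Mmp2 and Timp3 stood higher in both diets. On the control diet Timp1 stood at 0.117 of its 5 dpi level (0.112 to 0.122), while Mmp2 was 2.81-fold higher (2.68 to 2.95), Timp2 2.6-fold (2.51 to 2.68) and Timp3 2.37-fold (2.2 to 2.56). These were 4 of 6 members, beside 21.3% of all genes. On the hypothyroid diet Timp1 stood at 0.261 (0.252 to 0.271), Mmp2 was 3.15-fold higher (3.03 to 3.27), Timp3 3.21-fold (2.96 to 3.49) and Mmp3 6.54-fold (6.09 to 7.02), again 4 of 6, beside 25.1%. Timp2 was 1.93-fold higher there (1.87 to 2), just under the fold. Over both diets, 5 of 6 members passed the test between 5 and 14 dpi, beside 25.3% of all genes, Timp1 lower and Mmp2, Mmp3, Timp2 and Timp3 higher. Mmp3 did so narrowly (1.23 ± 0.44, log2, SE; limma, adjusted p = 0.0491). It was -0.08 without the hypothyroid 14 dpi library and 0.33 without the hypothyroid 5 dpi library, and passed in neither fit. Timp2 (1.16 with all libraries) did not pass without the control 14 dpi library (0.98) or the hypothyroid one (1.35). Such fits keep 1 library at the day concerned and 1 residual degree of freedom. Mmp2 at 14 dpi was the highest of the 3 days in both diets, and Timp3 stayed below its day 0 level in both.

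**Figure D2:**
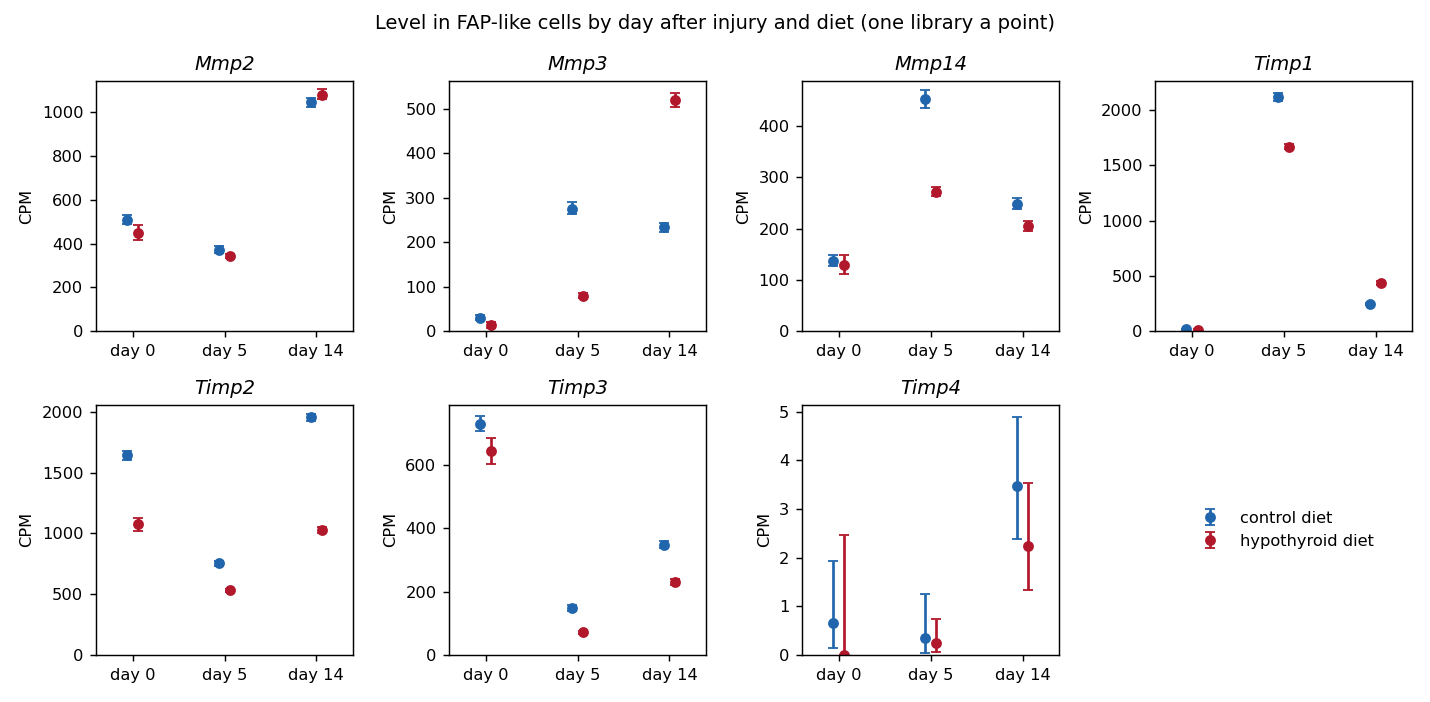
Level (CPM) of each gene in FAP-like cells at day 0, 5 dpi and 14 dpi on the control (blue) and hypothyroid (red) diet; a point is 1 library, and bars are exact 95% Poisson intervals, which cover counting error only. Timp1 peaked at 5 dpi, Timp2 and Timp3 were lowest at 5 dpi, and Timp2 was lower on the hypothyroid diet at each day.

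Between diets, fewer members were past the fold. Over the 3 days, with day as a block, 0 of 6 members passed the limma test between diets, beside 0.808% of 7554 genes. Before adjustment 2 had a limma p under 0.05, Timp2 (hypothyroid minus control -0.68 ± 0.21, log2, SE; unadjusted p = 0.00422, adjusted p = 0.218) and Timp3 (-0.60 ± 0.20, unadjusted p = 0.00811, adjusted p = 0.3125). For Mmp3 the difference was -0.58 ± 0.36 (limma, adjusted p = 0.689). With either 14 dpi library left out, the diet term rests on the same day 0 and 5 dpi pools. Both fits thus give 1 value, -1.45, with 1 residual degree of freedom. They leave out the day at which Mmp3 was higher on the hypothyroid diet. At day 0, Mmp3 alone of 5 members with enough UMIs was, at 0.443 of the control level (0.262 to 0.711), from 20 UMIs in 295 cells against 138 in 765, where 3.51% of 6074 genes were past the fold. At 5 dpi, Mmp3 (0.288, 0.266 to 0.313) and Timp3 (0.488, 0.443 to 0.537) were lower on the hypothyroid diet, 2 of 6 members, beside 10.0% of 9085 genes. With median-of-ratios size factors Timp3 came to 0.621, inside the fold. With at most 10 UMIs of a member counted per cell, neither gene was past the fold at 5 dpi. On the control diet 24 of 403 cells held 50% of the 848 Timp3 UMIs, and 1 cell held 118. At 14 dpi, Mmp3 alone was past the fold, now 2.23-fold higher on the hypothyroid diet (2.12 to 2.35), beside 4.69% of 8642 genes. The summed tenocyte markers of the same pools were 989.1 CPM (hypothyroid) and 356.9 CPM (control), and their part in this ratio and in that of Timp1 at 14 dpi was not tested. The median ratio over the members was 0.88, 0.651 and 0.923 at the 3 times, and that over all genes counted 0.975, 0.802 and 0.962.

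Timp2 was lower on the hypothyroid diet at every time, by less than the fold: 0.655 at day 0 (0.62 to 0.691), 0.704 at 5 dpi (0.678 to 0.732) and 0.525 at 14 dpi (0.5115 to 0.539). It was under 1 at each of the 3 times under each of the 9 alternative settings run. Timp3 stood at 0.88 (0.818 to 0.946), 0.488 and 0.662 (0.625 to 0.701), and Mmp14 at 0.943 (0.798 to 1.11), 0.602 (0.571 to 0.634) and 0.823 (0.772 to 0.877). Timp1 was 0.789 at 5 dpi (0.771 to 0.807) and 1.76-fold higher at 14 dpi (1.67 to 1.86), or 1.15-fold with each cell counted for at most 10 Timp1 UMIs, and Mmp2 was near 1 throughout (0.882, 0.924 and 1.03). When the pools were scaled by median-of-ratios size factors, Timp1 at 5 dpi came to 1.004 and Mmp2 to 1.18, so no direction is given for those.

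FAP-like cells are not of 1 kind, and the diet ratios were read again in subsets set by markers. The progenitor subset (Pi16, Dpp4, Cd55, Sema3c) and the interstitial subset (Smoc2, Col15a1, Hmcn2, G0s2) held most cells at day 0 and 14 dpi. The injury matrix subset (Cthrc1, Tnc, Lrrc15, Postn, Adam12) held 40.45% (control) and 57.1% (hypothyroid) of FAP-like cells at 5 dpi, and 3.53% and 17.8% at 14 dpi. Cycling cells were 29.3% and 20.8% at 5 dpi. On the control diet, the progenitor subset went from 43.9 to 23.6% of FAP-like cells between day 0 and 5 dpi, the interstitial subset from 46.5 to 2.73% and the injury matrix subset from 0.131 to 40.45%.

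The differences between days were therefore read within subsets too. In progenitor cells, 5 dpi over day 0, Timp2 was 0.871 on the control diet (0.825 to 0.919) and 1.16 on the hypothyroid diet (1.07 to 1.25), and in interstitial cells of the hypothyroid diet, 34 at 5 dpi, it was 0.904 (0.732 to 1.11). The lower Timp2 level of all FAP-like cells at 5 dpi was thus not seen at that size within these subsets. Mmp2 was 1.24 and 1.48 in progenitor cells and 1.28 in interstitial cells (1.03 to 1.58), above 1 where all FAP-like cells lay below it. Timp3 stayed low, at 0.32 (0.2805 to 0.364) and 0.351 (0.302 to 0.406) in progenitor and 0.192 in interstitial cells. Timp1 was 54.7-fold and 70.1-fold and Mmp14 2.4-fold and 1.72-fold higher in progenitor cells. For 14 over 5 dpi in progenitor cells, Timp2 was 1.39 (control) and 0.988 (hypothyroid, 0.931 to 1.05). Timp3 was 1.78 and 1.35 there, and Mmp3 0.274 and 1.98. In injury matrix cells Timp2 was 1.68 and 1.34, Timp3 0.814 (0.58 to 1.12) and 2.0, and Mmp3 2.77 and 13.7. Mmp2 was above 1 and Timp1 below 1 in both these subsets on both diets.

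Timp2 was higher in progenitor than in interstitial cells at day 0 and 14 dpi, and Mmp3 lower. At day 0 on the control diet Timp2 was 2033 CPM in progenitor and 1126 CPM in interstitial cells, while Mmp3 was 2.7 and 74.7 CPM. At 14 dpi on the control diet Mmp3 was 92.0 CPM in progenitor, 465 in interstitial and 661 in injury matrix cells, and on the hypothyroid diet it was 169, 539 and 1124 CPM. At 5 dpi that order was not seen, with 335.5 CPM in progenitor, 238 in injury matrix and 287.5 in cycling cells on the control diet. Timp1 at 5 dpi was 739 CPM in progenitor, 1529 in injury matrix and 3261 in cycling cells on the control diet, against 732, 1820 and 1701 CPM on the hypothyroid diet.

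The Timp2 difference was present within subsets. Hypothyroid over control, it was 0.619 (progenitor) and 0.725 (interstitial) at day 0, and 0.586, 0.575 and 0.542 (progenitor, interstitial, injury matrix) at 14 dpi. At 5 dpi it was 0.823 (progenitor) and 0.681 (injury matrix), and 1.02 in cycling cells (0.941 to 1.11). The Timp3 difference of 5 dpi was not shared among subsets, at 1.01 in progenitor cells (0.847 to 1.21), 0.787 in cycling cells and 0.288 in injury matrix cells (0.242 to 0.342). At 14 dpi Timp1 was 2.71-fold higher in interstitial and 2.59-fold higher in injury matrix cells, and 1.11-fold in progenitor cells. Whether subsets differed in their diet ratio was not tested.

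**Figure D3:**
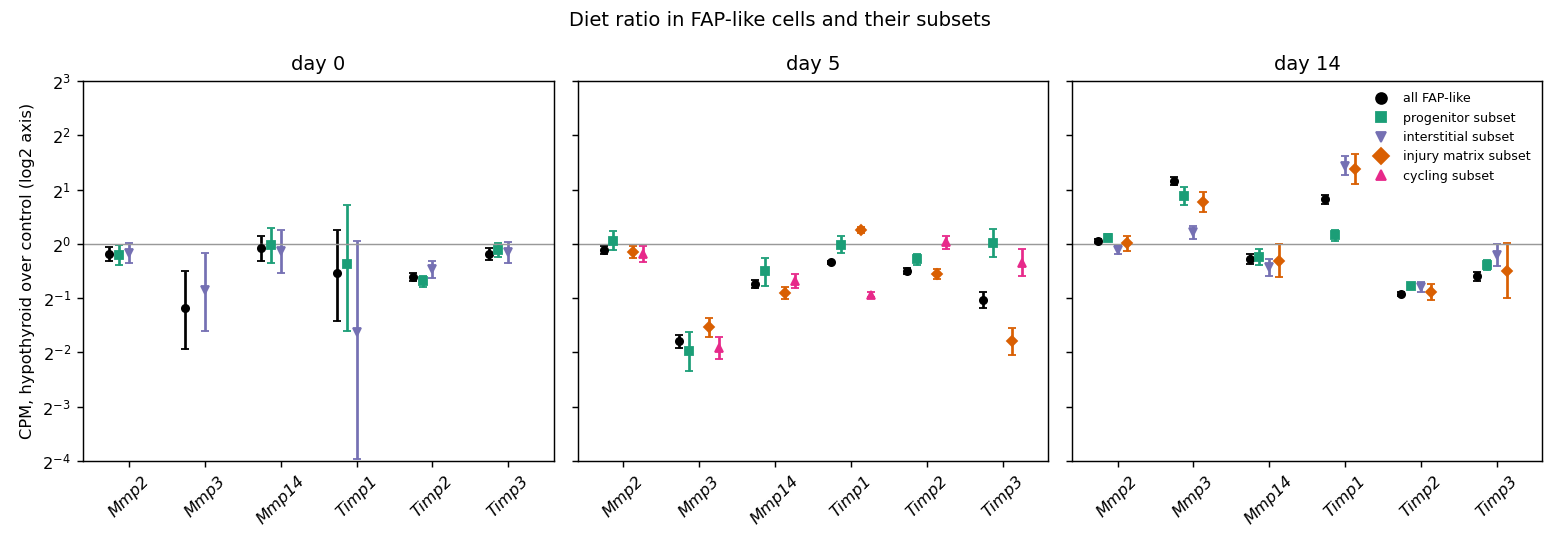
Ratio of CPM, hypothyroid over control, on a log2 axis, in all FAP-like cells (black) and in the progenitor, interstitial, injury matrix and cycling subsets with at least 20 cells in both libraries; bars are exact 95% binomial intervals, which cover counting error only, and ratios of 0 and Timp4 are left out. Timp2 lay below 1 in each set of cells except the cycling subset at 5 dpi, and Mmp3 lay below 1 at day 0 and 5 dpi and above 1 at 14 dpi.

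The 7 genes differed in how many cells carried them. After thinning each cell to 1000 UMIs, which left 289 to 1491 FAP-like cells per library, Mmp2 was seen in 38.4, 33.0 and 61.1% of control FAP-like cells and 35.3, 32.7 and 60.3% of hypothyroid ones at day 0, 5 dpi and 14 dpi. Timp2 was seen in 66.5, 49.4 and 76.1% (control) and 60.2, 42.5 and 56.7% (hypothyroid). T/NK-like cells, the background, showed Mmp2 in 0 to 1.54% and Timp2 in 2.31 to 13.04%. Without thinning, Timp2 was seen in 90.5 to 94.4% of FAP-like cells (median depth 4412 to 13872 UMIs per cell) and 11.2 to 17.4% of T/NK-like cells (2469 to 3703 UMIs).

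Mmp3 was carried by very few cells. Thinned, it was seen in 1.48, 5.54 and 5.16% of control and 1.04, 3.83 and 6.58% of hypothyroid FAP-like cells. At 5 dpi on the control diet 6 of 403 cells held 50% of the 1596 Mmp3 UMIs, and 1 cell held 179. At 14 dpi on the hypothyroid diet 9 of 853 cells held 50% of 4185 UMIs, and 1 cell held 457. In the same pools 79 and 204 cells held 50% of the Mmp2 UMIs, and 26 and 30 cells 50% of the Timp1 UMIs.

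The counting interval treats UMIs as independent, so it is too narrow for genes held by few cells, such as Mmp3, Timp1 and, at 5 dpi, Timp3. Of the Timp1 UMIs, 95.25% (control 5 dpi) and 72.15% (hypothyroid 14 dpi) were in cells with 10 or more. For Mmp3 the diet ratio was also read with less weight on such cells. With each cell counted for at most 10 Mmp3 UMIs, the ratio was 0.456, 0.68 and 1.09 at the 3 times, and by share of cells after thinning it was 0.702, 0.69 and 1.27. The exact intervals of the thinned shares overlapped at 5 dpi (3.5 to 8.27% control, 2.6 to 5.42% hypothyroid) and at 14 dpi (4.1 to 6.41% and 4.99 to 8.48%).

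**Figure D4:**
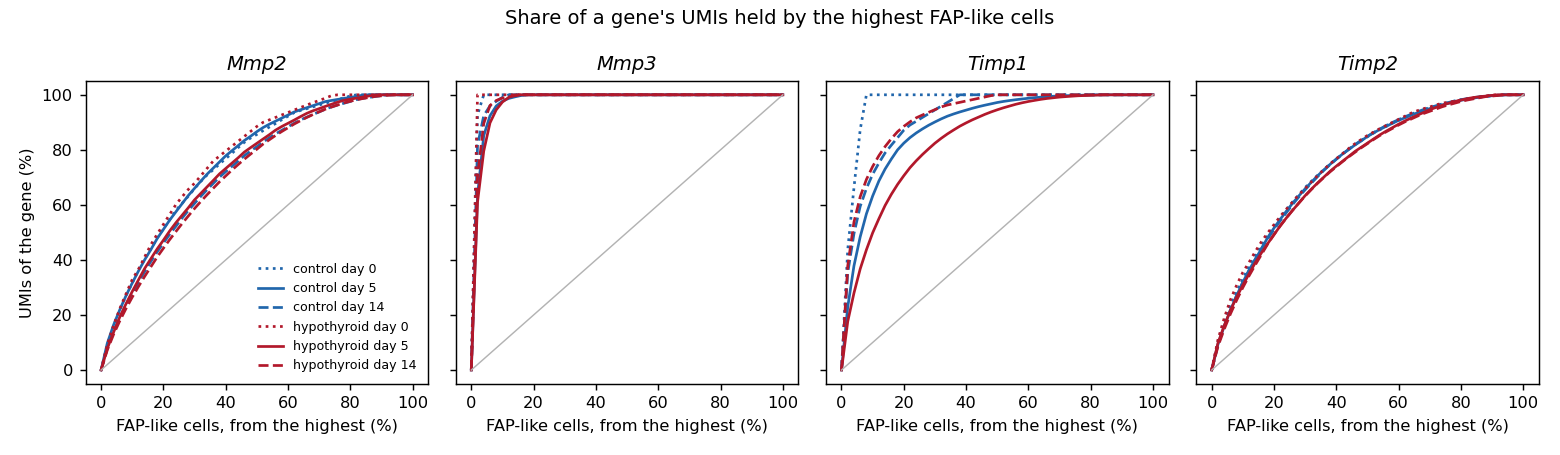
Share of all UMIs of Mmp2, Mmp3, Timp1 and Timp2 (vertical, percent) held by the highest FAP-like cells (horizontal, percent of cells, from the highest down), 1 line per library; the gray diagonal marks an even spread, and libraries with under 20 UMIs are left out. The highest 10% of cells held 97.4 to 100% of Mmp3 UMIs, against 26.5 to 32.1% for Mmp2.

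Mmp14 and Timp2, partners in the activation of MMP2, were seen together at rates near the product of their shares in 5 of 6 libraries, and below it in the control 5 dpi library (13.1 against 15.9%). In thinned FAP-like cells both were seen in 9.54, 13.1 and 17.0% of control cells and 7.27, 10.5 and 9.57% of hypothyroid ones, where the product of their shares is 9.48, 15.9, 17.4, 7.71, 10.6 and 9.63%. Mmp3 and Timp1 were together in 4.79% of control and 2.68% of hypothyroid cells at 5 dpi, where the products are 2.54 and 2.03%. Mmp2 and Timp2 were together in 27.0, 18.9 and 46.75% of control and 21.8, 15.3 and 36.1% of hypothyroid cells, against products of 25.6, 16.3, 46.5, 21.25, 13.9 and 34.2%. Mmp2 and Mmp14 were together in 6.855, 11.6 and 14.8% (control) and 6.92, 8.8 and 11.4% (hypothyroid), against 5.48, 10.6, 14.0, 4.52, 8.12 and 10.2%. Both pairs lay above the product in 6 of 6 libraries, and none of these differences was tested.

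Summed over the family, FAP-like cells carried more inhibitor than protease UMIs in 5 of 6 libraries. Timp1 to Timp4 UMIs over Mmp2, Mmp3 and Mmp14 UMIs were 3.53, 2.74 and 1.67 on the control diet at day 0, 5 dpi and 14 dpi, and 2.92, 3.27 and 0.939 (0.917 to 0.961) on the hypothyroid diet. With at most 10 UMIs of a member counted per cell, they were 2.62, 1.34 and 1.36 (control) and 2.545, 1.46 and 1.12 (hypothyroid). Counted so, the 5 dpi ratio lay below that of day 0 in both diets. Timp1 made up 0.652, 70.1 and 9.67% of the inhibitor UMIs on the control diet and 0.62, 73.5 and 25.7% on the hypothyroid diet. Of the protease UMIs, Mmp2 made up 75.2, 33.8 and 68.45% on the control diet and 75.85, 49.4 and 59.9% on the hypothyroid diet. At 14 dpi on the hypothyroid diet, the value rose above 1 when UMIs per cell were limited or Mmp3 UMIs were left out. It was 1.12 with at most 10 UMIs of a member counted per cell, 1.09 without the 9 cells that held 50% of the Mmp3 UMIs, and 1.32 without Mmp3, against 1.36, 1.82 and 1.98 on the control diet. Timp2 in the same 14 dpi pools was 1028 CPM (hypothyroid) and 1958 CPM (control), and its part in the ratio was not tested. The sums count RNA, not active protein.

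**Figure D5:**
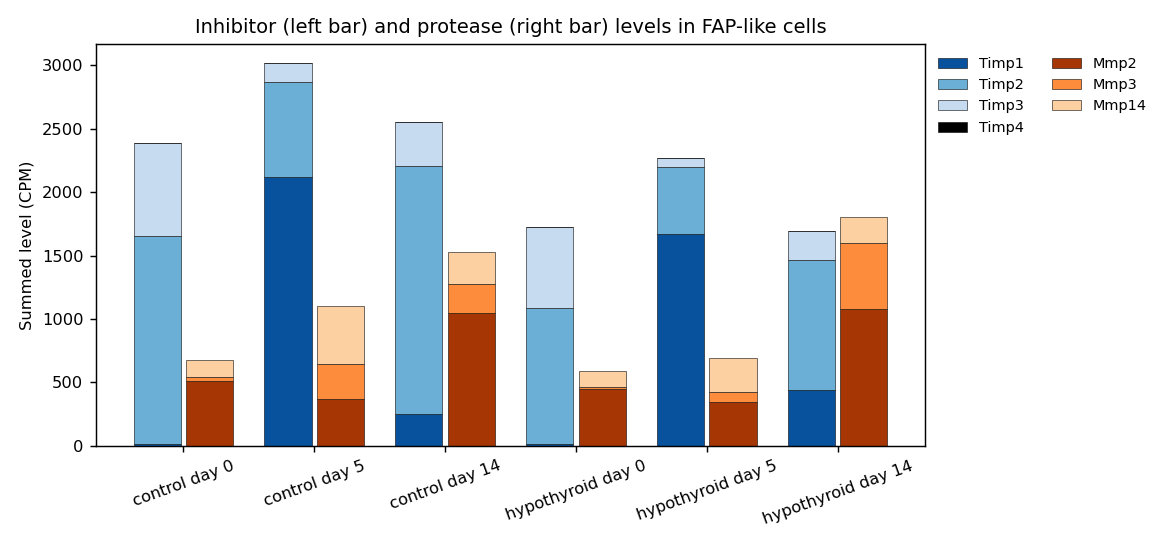
Summed level (CPM) of the 4 inhibitors (left bar) and the 3 proteases (right bar) in FAP-like cells of the 6 libraries, stacked by gene. Timp1 formed most of the inhibitor bar at 5 dpi in both diets, and the protease bar exceeded the inhibitor bar in the hypothyroid 14 dpi library alone, where without the 9 cells highest in Mmp3 the inhibitors exceeded the proteases 1.09-fold.

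In vessels, Timp4 was lower at 5 dpi than at day 0 and higher again at 14 dpi in both diets. Endothelial-like cells held 48, 17 and 698 Timp4 UMIs in 89, 125 and 626 cells on the control diet and 24, 1 and 386 UMIs in 26, 30 and 230 cells on the hypothyroid diet. On the control diet the 14 dpi level was 14.1-fold that of 5 dpi (8.73 to 24.3), and with 1 UMI at 5 dpi the hypothyroid ratio was 67.1 (12 to 2656). At 14 dpi, diets differed little (1.12-fold, 0.989 to 1.27). Within endothelial-like cells, Timp4 on the control diet was 770 CPM in capillary cells at day 0, 25.4 CPM at 5 dpi and 378 CPM at 14 dpi, so that its 14 dpi level was below that of day 0. Larger vessel cells held 53.6 CPM at 14 dpi and 0 CPM at 5 dpi. In mural-like cells, too, the 61.6 CPM of 14 dpi lay below the 190.5 CPM of day 0.

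Timp3 in endothelial-like cells stood at 0.537 of its day 0 level at 5 dpi on the control diet (0.457 to 0.632) and at 0.282 on the hypothyroid diet (0.2035 to 0.389, 30 cells at 5 dpi). In mural-like cells on the control diet it was 1184, 1313 and 1163 CPM, with both ratios between days having intervals that include 1. At 14 dpi, hypothyroid over control, Timp3 was 1.36-fold higher in endothelial-like cells (1.26 to 1.46) and Timp2 stood at 0.494 (0.377 to 0.64). The control pool held 56 larger vessel cells, with 250.3 CPM of Timp2, and the hypothyroid pool held 0. In capillary cells alone, Timp2 was 1.14 (0.824 to 1.57) and Timp3 1.43 (1.31 to 1.55), so the lower Timp2 value was not seen within capillary cells. Endothelial-like cells of both 5 dpi pools held more UMIs than those of other days (median 3981 and 4259.5 UMIs per cell, against 1110.5 to 2592). The part of depth in these differences was not tested.

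Diet ratios were also read in monocyte/macrophage-like, myogenic progenitor-like and tenocyte-like cells. Timp2 was 1.75-fold higher on the hypothyroid diet in monocyte/macrophage-like cells at 5 dpi (1.6 to 1.91) and 1.27-fold at 14 dpi (1.07 to 1.52), where FAP-like cells were lower. The 13 FAP markers in the same pools summed to 304 CPM (control) and 880 CPM (hypothyroid) at 5 dpi and 782 and 1325 CPM at 14 dpi, against 45210 CPM over FAP-like cells, and their part in the difference was not tested. Timp1 in myogenic progenitor-like cells at 5 dpi was 3.24-fold higher (2.86 to 3.68), from 2001 UMIs in 142 cells against 286 in 83. In those pools the FAP markers summed to 1729 CPM (hypothyroid) and 2156 CPM (control), the myocyte markers to 346 and 3535 CPM, the myogenic progenitor markers to 1011 and 1926 CPM and the tenocyte markers to 79.6 and 33.7 CPM, and their part in the difference was not tested. Timp2 in the same pools was 0.586 (0.511 to 0.673), below 1 as in FAP-like cells. In tenocyte-like cells at 14 dpi, Mmp3 was 612 CPM (129 UMIs in 31 cells) against 31.2 CPM (29 UMIs in 160 cells). The differences between classes in the diet ratio were not tested.

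The wider list of proteases, activators, inhibitors and clearance receptors had 40 of 46 genes in the tables, and Mmp7, Mmp8, Mmp17, Mmp24, Mmp28 and A2m were not analysed here. In FAP-like cells at 5 dpi against day 0, 7 of 28 list genes with at least 100 UMIs were higher and 4 lower on the control diet, and 12 and 2 of 31 on the hypothyroid diet, beside 28.4 and 35.0% of all genes past the fold in either direction. Adam12, a membrane protease, went from 3.07 to 131 CPM and from 3.35 to 115 CPM. Mmp9 (gelatinase B) and Mmp10 (stromelysin-2) were at 0 UMIs in both day 0 pools (3 counts would be 0.658 and 2.01 CPM) and at 30.8 and 31.1 CPM (control) and 26.6 and 31.2 CPM (hypothyroid) at 5 dpi. Reck, a membrane inhibitor of metalloproteinases, stood at 0.186 and 0.244 of its day 0 level, the same direction as Timp2 and Timp3.

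From 5 to 14 dpi, 2 of 30 list genes were higher and 4 lower on the control diet, and 2 and 2 of 31 on the hypothyroid diet, beside 21.3 and 25.1% of all genes. Plaur, the urokinase receptor, was 2.74-fold and 2.51-fold higher. Mmp9 stood at 0.0458 of its 5 dpi level on the control diet, and at 1 UMI in the hypothyroid pool.

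Between diets in FAP-like cells, 0 list genes were higher and 3 of 23 lower at day 0, 3 higher and 2 lower of 31 at 5 dpi, and 3 higher and 5 lower of 30 at 14 dpi, beside 3.51, 10.0 and 4.69% of all genes. At 5 dpi Plau (urokinase) was 390 against 112 CPM (3.47-fold, 3.2 to 3.78) and Thbs1 (thrombospondin-1) 1755 against 868 CPM. At 14 dpi Adamts2, which trims procollagen, was 94.8 against 247.5 CPM (0.383, 0.352 to 0.416) and also lower at day 0 (44.9 against 127 CPM). Mmp12, the macrophage elastase, was higher on the hypothyroid diet in FAP-like cells at 14 dpi (31.5 against 8.9 CPM), and far higher in monocyte/macrophage-like cells (1868 against 157 CPM, 11.9-fold, 9.04 to 16). The part of free macrophage RNA in the FAP-like value was not tested.

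The genes with the pattern most like each member were named by Pearson r of log2(CPM + 1) over the 42 pools, which share libraries, among 12237 genes. They were Pamr1, Serpinf1 and Abi3bp for Mmp2 (0.887, 0.879 and 0.879), Dnm1, Cpxm1 and Il1rl1 for Mmp3 (0.815, 0.81 and 0.802) and Slc35f5, Tceal8 and Efemp2 for Mmp14 (0.893, 0.88 and 0.875). For Timp1 they were Postn, Tnc and Fkbp11 (0.865, 0.861 and 0.836), and for Timp2 Cd302, Steap3 and Rassf8 (0.846, 0.832 and 0.829). For Timp3 they were Amotl1, Emp2 and Yap1 (0.953, 0.951 and 0.949), and for Timp4 Rapgef5, Ccdc85a and Aqp1 (0.902, 0.862 and 0.858). Serpinf1 is also 1 of the FAP markers, and Postn and Tnc are injury matrix markers. Among the members, Mmp2 and Mmp3 were most alike (0.756), followed by Mmp14 and Timp2 (0.755), and Timp4 was related above 0.2 to Timp3 only (0.556).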

How the data were processed

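Single-cell RNA-seq (10x 3′ V3) was deposited as 1 table per library, 6 in all. The authors processed reads with Cell Ranger and Partek on mm39, filtered cells by UMIs, genes and mitochondrial share, and deposited log2(CPM + 1) values per cell. In the deposited log2 tables, 99.9% of values were whole multiples of the most frequent value of their cell (within 0.1), which was taken as 1 UMI. In each file only the first run of alphabetically ordered barcodes was used, since the 9062 later columns name no library.

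Cells were assigned to the class with the highest mean marker score when at least 3 markers were present and the score led the next class by 1.5 times. The lead was not asked between monocyte/macrophage and dendritic cells, and myocyte-like cells needed 10% of UMIs in myocyte markers. The gate was tuned on its match with graph clusters (94.4% of gated cells), not on the 7 genes. The clusters were named by the same marker scores and ungated cells were left out, so this match is not independent of the gate. No doublet caller was run. UMIs were summed per class and library and given as CPM for pools of at least 20 cells. Classes were compared with limma 3.58.1 (lmFit, eBayes with trend) on log2(CPM + 1), library as block, genes at 10 CPM in 3 pools, with Benjamini-Hochberg adjustment over all genes. Diets and days were compared in the same way over the 6 FAP-like pools, with terms for diet and day, so that diets were paired by day. Shares had Clopper-Pearson and levels Poisson 95% intervals. Scripts were tested on simulated data. Nothing in the labels says which mice entered a library. With library as a block, the class test sets a class difference against its spread from library to library. The test of diets and days had 1 library per diet and day. Its residual is how far the diet difference varied between days, moderated over all genes by limma. Neither p-value measures the spread between mice or between replicate libraries.

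The 7 genes, the marker and pathway lists and the tests were chosen with earlier results of these data known. Named genes are the 7 members, list genes with at least 100 UMIs in a pool that were past 2-fold (at most 6 per comparison), and the 3 genes most like each member. Alternatives were other scaling, gating, clustering, thinning, weighting, pseudocounts (0.5 and 10), filters, libraries and column sets.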

Additional observations from a re-analysis of the deposited data

Results flagged for a closer look

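Mmp3 in FAP-like cells was flagged because its diet ratio, hypothyroid over control, lay on opposite sides of 1 at different times: 0.443 at day 0, 0.288 at 5 dpi and 2.23 at 14 dpi. For the same reason its change from 5 to 14 dpi was flagged, 0.846 on the control and 6.54 on the hypothyroid diet. With 1 library per diet and day, a diet ratio that differs between days leaves no residual degrees of freedom, and the difference was not tested, and few cells held most Mmp3 UMIs.

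Timp3 in myogenic progenitor-like cells was flagged likewise. Its diet ratio was 1.37 at 5 dpi (756 and 255 UMIs) and 0.45 at 14 dpi (42 and 64 UMIs in 24 and 31 cells), and its change from 5 to 14 dpi was 1.42 on the control and 0.466 on the hypothyroid diet. The difference was not tested.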

How the results depend on the processing

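The labels carry no replicate numbers, so no replicate block was fitted; diets were paired by day in the limma fit with diet and day. Leaving out 1 library there gave 0 to 1 members between diets (1, Mmp3, without either 14 dpi library), 5 in each case between day 0 and 5 dpi, and 3 to 5 between 5 and 14 dpi (3 without hypothyroid 14 dpi). Each of these fits had 1 residual degree of freedom, and without either 14 dpi library the diet term rests on the same day 0 and 5 dpi pools. Hypothyroid over control at day 0, 5 dpi and 14 dpi gave 1, 2 and 1 members past 2-fold in FAP-like cells as reported. The counts were 0, 1 and 0 by the mean over cells of log2(CPM + 1), 0, 0 and 0 by share of cells with a UMI, and 2 and 4 at day 0 and 14 dpi at 1.5-fold. All columns of each file gave 0 at day 0 and 14 dpi, at most 10 UMIs per cell gave 0 at 5 and 14 dpi, median-of-ratios scaling gave 1 at 5 dpi, and thinning to 1000 UMIs gave 0 at 14 dpi. For day 5 over day 0, all columns gave 1 in each diet, and the mean of log2 values, graph clusters and share of cells gave 3 on the hypothyroid diet, against 5. For day 14 over day 5 (4 in each diet), all columns gave 1, thinning 2 and share of cells 1 on the control diet, and share of cells and at most 10 UMIs per cell gave 2 on the hypothyroid diet. The last 2 weightings (at most 10 UMIs, share of cells) were chosen after seeing the data. All columns add the 9062 columns of unknown library. The cause was not tested for any of these alternatives.

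In the class test, the mean of log2 values gave 5 members higher and 1 lower than in mural-like cells (against 3 and 2) and 1 lower than in tenocyte-like cells (against 0), the stricter gate gave 1 higher than in tenocyte-like cells, and all columns gave 1 lower than in myocyte-like cells. Leaving out 1 library gave 2 to 4 members higher than in myogenic progenitor-like cells, the lowest without control 14 dpi.

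Of ratios past 2-fold, those that turned direction did so with all columns for Mmp3 (0.88 and 0.644, day 5 over day 0 in control and hypothyroid), Mmp14 (0.978, hypothyroid day 5 over day 0), Timp2 (1.04 in FAP-like and 1.04 in endothelial-like cells, control day 5 over day 0) and Timp1 in myogenic progenitor-like cells (1.29, control day 14 over day 5, and 1.98 when thinned). By the mean of log2 values, Timp2 in endothelial-like cells (control day 5 over day 0) came to 1.3 and Timp3 in myogenic progenitor-like cells (14 dpi, diets) to 1.18. By graph clusters, Timp3 in the latter (hypothyroid day 14 over day 5) came to 1.63. Of 19 FAP-like ratios under 2-fold, 6 lay on the other side of 1 in at least 1 alternative. Between diets these were Timp1 at 5 dpi (0.789, and 1.34 with all columns, 1.3 by mean log2, 1.09 with at most 10 UMIs, 1.16 by share of cells and 1.004 by median-of-ratios), Mmp14 at day 0 (1.77 with all columns), and Mmp2 at 5 dpi (1.14 and 1.18, mean log2 and median-of-ratios) and 14 dpi (0.821 with at most 10 UMIs, 0.987 by share of cells). Between days they were Mmp3, control 14 over 5 dpi (0.846, and 1.05 with all columns, 1.29 thinned and 1.2 with at most 10 UMIs), and Mmp2, hypothyroid 5 dpi over day 0 (1.65 by mean log2). Depth limits small pools such as endothelial-like hypothyroid 5 dpi (30 cells) and mural-like control day 0 (20 cells).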

Other observations

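Monocyte/macrophage-like cells carried some other genes of the wider list at higher and, at 5 dpi, some at lower levels on the hypothyroid diet. At 5 dpi, 5 of 17 list genes with at least 100 UMIs in a pool were past 2-fold higher and 3 lower. At 14 dpi, 3 of 10 were higher and 0 lower. The share of all genes past the fold was not counted in this class, so these counts are no result about the list as a group. Mmp12, the macrophage elastase, was 160 CPM (control) and 429 CPM (hypothyroid) at 5 dpi, and 157 and 1868 CPM at 14 dpi. Mmp13, a collagenase, was 2.97 and 28.7 CPM at 5 dpi and 30.2 and 126 CPM at 14 dpi, from 3, 132, 10 and 154 UMIs. Plau (urokinase) was 47.5 and 168 CPM and Ctsk (cathepsin K) 21.8 and 75.7 CPM at 5 dpi. Mmp19 went the other way, at 596 (control) and 249.4 CPM (hypothyroid) at 5 dpi, as did Thbs1, at 1929 and 897 CPM, and Adam10. Each value is 1 library of 85 to 546 such cells, and no difference between diets was tested in this class.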
